A study of Homo sapiens with 6 samples.

Results

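The 283 genes described here carry names that end in -AS, with or without a number, which marks RNAs read from the strand opposite a named partner gene. They were the rows with such a name whose counts over 6 libraries summed to at least 250 and under 1000. From these, genes named for zinc-finger, HOX, HLA, COL4A2, COL18A1 and LOXL partners and 10 single genes were left out (25 rows in this range). The sum of counts chose the members, so the level itself is a description here. They make up 283 of 1869 antisense-named rows in a table of 35036 non-coding genes. RNA was measured in U-2OS cells, a human osteosarcoma line, labelled SiSFPQ (3 libraries) for a small interfering RNA against SFPQ or SiCtrl (3 libraries) for its control. RNA was poly(A)-selected and sequenced with a stranded kit. All 6 libraries came from cells treated with actinomycin D, and no untreated cells were analysed here. The sequence of the interfering RNA and the dose and duration of the drug are not given in the sources used here. Nothing says that the libraries came from separate cultures, so p-values measure only the spread between these libraries, which may be technical.

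Antisense RNAs fall into recognisable arrangements with their partners. Many begin at the partner's promoter and run away from it, others start within or beyond the partner and read back across its body or its end. Some are known to act on the partner in cis, through chromatin at its promoter or by pairing with its transcript, while for many no role is known. SFPQ is an RNA- and DNA-binding protein of nuclear paraspeckles with parts in transcription, splicing and the expression of long genes. Actinomycin D intercalates into GC-rich DNA and stalls RNA polymerases, that of ribosomal DNA first.

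The members held 1.68%, 1.71% and 1.69% of the table's counts in the SiSFPQ libraries, against 1.56%, 1.56% and 1.56% in the SiCtrl libraries. Table totals ran from 1298658 to 1599566 counts in SiSFPQ and from 1385532 to 1533974 counts in SiCtrl. They are totals of a non-coding table and not the sequencing depth. No member was at 0 in any library, and the lowest count was 15. The level of SFPQ was not analysed here, so how far it was depleted was not measured, and the 16 coding markers listed for the cell line were not analysed here either. Counting did not part the strands at MALAT1: it and the opposite-strand TALAM1 over it had 72563 and 72552 counts in all. Of 5 other opposite-strand pairs whose spans overlap by at least 90%, with 250 counts or more each, 1 was within 10%. The other 4 differed by 35.1% to 78.4%, among them the one with a member, PIK3CD-AS2 (737 counts, against 345). These pairs were matched by span and their exons can differ, so unequal counts do not show whether strands were parted. A member's count can therefore include reads of a partner gene, and 237 of the 283 lie over exons of coding genes in GENCODE 29. Less RNA per cell and fewer cells with the RNA cannot be told apart in these bulk libraries.

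Both directions were common. By edgeR's quasi-likelihood test across all tested genes, with Benjamini-Hochberg adjustment at 0.05, 86 members were higher and 71 lower in SiSFPQ, and 126 were not called. The members higher made up 30.4%, beside 24.5% of all 6325 tested genes, and the members lower 25.1%, beside 24%. A log2 fold change of at least 1 was reached by 14 members that rose (4.95%, beside 6.86% of tested genes) and by 12 that fell (4.24%, beside 5.38%). SiSFPQ and SiCtrl libraries did not overlap in CPM for 173 members (61.1%, beside 54% of tested genes), 93 of them higher (beside 27.1% of tested genes) and 80 lower (beside 26.9%). The median log2 fold change was 0.07 over the members and 0.0079 over all tested genes. DESeq2 called fewer, 52 higher and 38 lower, beside 11.2% and 11.8% of the genes it tested.

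**Figure D1:**
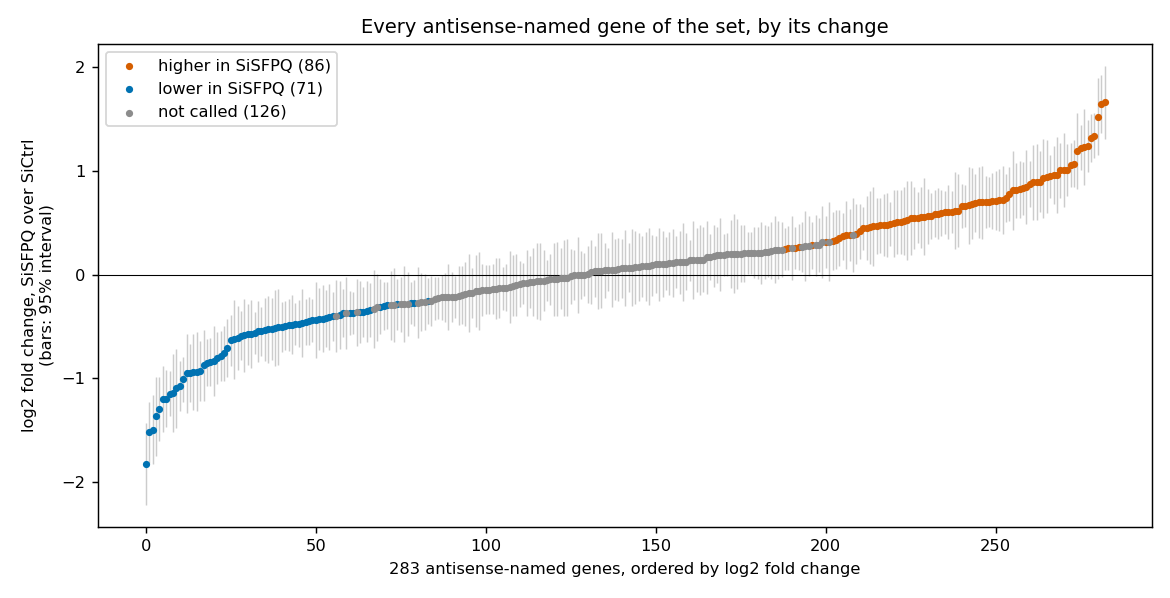
Log2 fold change of each of the 283 antisense-named genes, SiSFPQ over SiCtrl, in rising order, with its 95% interval. Changes run from -1.83 to 1.66, with 86 genes higher, 71 lower and 126 not called between them.

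The largest increase was that of PRKAR1B-AS1 (ENSG00000237181, chromosome 7, 601634 to 608482, plus strand), which lies inside PRKAR1B, the gene of a regulatory subunit of protein kinase A, over none of its exons. It had 59.6, 68.5 and 50.4 CPM in SiSFPQ, against 22.1, 14.9 and 19.5 CPM in SiCtrl. CPM is the count scaled to each library's total over the tested genes, with TMM scaling factors. Every SiSFPQ library stood above every SiCtrl library, and the log2 fold change was 1.66 ± 0.18 (SE; edgeR, adjusted p = 6.5e-19).

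Next came 2 genes whose starts almost meet those of their partners. EXOC3-AS1 (ENSG00000221990, chromosome 5, 441498 to 443160, minus strand) starts 2 bases from EXOC3, the gene of an exocyst subunit that tethers secretory vesicles. It had 89.3, 92.8 and 101 CPM in SiSFPQ, against 32.8, 30.6 and 26.9 CPM in SiCtrl (log2 fold change 1.65 ± 0.14; edgeR, adjusted p = 3.0e-29). URB1-AS1 (ENSG00000256073, chromosome 21, 32393048 to 32394380, plus strand) starts 22 bases from URB1, whose protein takes part in assembly of the large ribosomal subunit. Its levels were 48.1, 62.3 and 43.3 CPM in SiSFPQ, against 22.1, 12.9 and 18.7 CPM in SiCtrl (1.53 ± 0.19; edgeR, adjusted p = 1.2e-14). In both genes the libraries of the groups were well apart, and almost no exonic base of either lay over a coding exon (0.18% in EXOC3-AS1).

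At 2 loci a pair of members rose together. BCAN-AS1 (ENSG00000272068, chromosome 1, 156637783 to 156641004) lies within the span of BCAN-AS2 (ENSG00000229953, 156614740 to 156661453), both on the minus strand. BCAN-AS1 lies beside BCAN, the gene of the proteoglycan brevican, and BCAN-AS2 spans BCAN. BCAN-AS1 had 151, 153 and 147 CPM in SiSFPQ, against 49.2, 70.7 and 57.6 CPM in SiCtrl, the smallest adjusted p of all members (1.34 ± 0.11; edgeR, adjusted p = 5.6e-32). BCAN-AS2 had 90.1, 104 and 102 CPM in SiSFPQ, against 46.4, 46.9 and 54.6 CPM in SiCtrl (1.01 ± 0.13; edgeR, adjusted p = 1.5e-14). Another row there, ENSG00000272405, was higher by 1.14 with 1946 counts. These rows overlap on 1 strand and may share reads, so they are not independent observations.

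DLGAP1-AS1 and DLGAP1-AS2 (ENSG00000177337, chromosome 18, 3593732 to 3597372, and ENSG00000262001, 3594114 to 3610094, both plus strand) lie inside DLGAP1, the gene of a postsynaptic scaffold, and overlap each other. DLGAP1-AS1 had 119, 135 and 119 CPM in SiSFPQ, against 50.7, 55 and 43.4 CPM in SiCtrl (1.32 ± 0.12; edgeR, adjusted p = 7.6e-27). DLGAP1-AS2 had 148, 144 and 142 CPM in SiSFPQ, against 70.6, 56.4 and 58.4 CPM in SiCtrl (1.22 ± 0.11; edgeR, adjusted p = 7.1e-27). Neither lies over a coding exon.

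The other large increases were at the calcium pump gene ATP2A1 and the jumonji-domain gene JMJD1C. ATP2A1-AS1 averaged 102 ± 2.89 CPM in SiSFPQ and 43.1 ± 5.40 CPM in SiCtrl (SD, n = 3 each; log2 fold change 1.24). JMJD1C-AS1 averaged 47.1 ± 10.7 CPM in SiSFPQ and 20.3 ± 2.85 CPM in SiCtrl (SD, n = 3 each; 1.23).

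FAM13A-AS1 fell furthest (ENSG00000248019, chromosome 4, 88708622 to 88730098, plus strand). It reads across the end of FAM13A and had 19.1, 14.3 and 9.70 CPM in SiSFPQ, against 56.4, 45.5 and 49.4 CPM in SiCtrl. The log2 fold change was -1.83 ± 0.20 (SE; edgeR, adjusted p = 1.7e-18). Every SiSFPQ library stood below every SiCtrl library.

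CD82-AS1 (ENSG00000254693, chromosome 11, 44604508 to 44605337, minus strand) lies inside CD82, a tetraspanin gene, with 51.6% of its exonic bases over coding exons. It had 28.3, 30.5 and 25.2 CPM in SiSFPQ, against 76.4, 81.5 and 83.8 CPM in SiCtrl (-1.52 ± 0.15; edgeR, adjusted p = 1.0e-22). TENM2-AS1, at the end of the adhesion gene TENM2 and over none of its exons, had 26.0, 23.0 and 19.4 CPM in SiSFPQ, against 75.6, 56.4 and 59.9 CPM in SiCtrl (-1.49 ± 0.17; edgeR, adjusted p = 1.7e-17). In both, the groups were apart by a wide margin.

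Of the 283 members, 54 read across the end of the partner, and 5 of the 8 largest decreases did so. Beside FAM13A-AS1 and TENM2-AS1 these were PKP4-AS1, at a plakophilin gene of cell junctions, EHBP1-AS1, at a gene of endocytic traffic, and ITFG1-AS1. PKP4-AS1 averaged 17.8 ± 2.50 CPM in SiSFPQ and 45.7 ± 6.63 CPM in SiCtrl (log2 fold change -1.37). EHBP1-AS1 averaged 27.4 ± 3.43 CPM in SiSFPQ and 66.9 ± 6.09 CPM in SiCtrl (-1.30). ITFG1-AS1 (ENSG00000260281, chromosome 16, 47144260 to 47162749) averaged 60.2 ± 4.68 CPM in SiSFPQ and 134 ± 14.4 CPM in SiCtrl (-1.15; SD, n = 3 each throughout). The remaining 2 lie inside their partners: RUFY1-AS1 (-1.20), at the gene of an endosomal Rab effector, and GSN-AS1 (-1.20), at the gene of the actin-severing protein gelsolin. PRICKLE2-AS1, at a planar cell polarity gene, was lower by a factor of 2.01, with 132, 132 and 132 CPM in its SiCtrl libraries and 60.1 to 70.4 CPM in SiSFPQ.

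**Figure D2:**
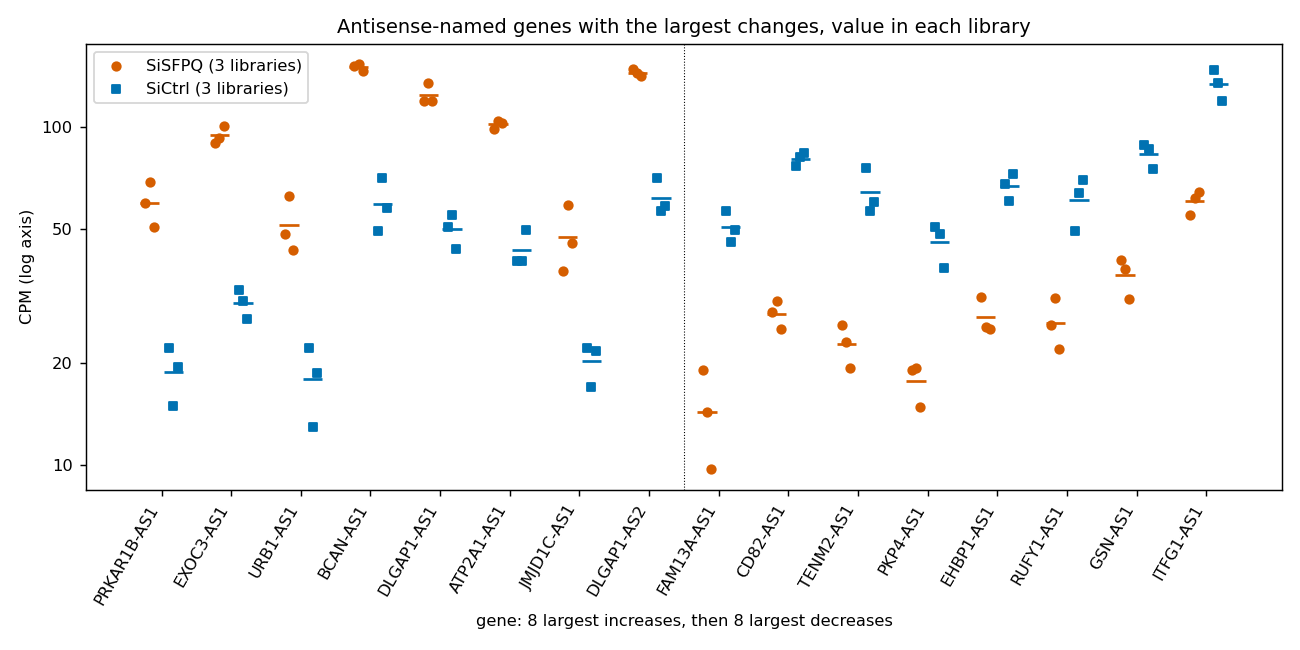
CPM on a log axis in each library, SiSFPQ left of SiCtrl, for the 8 largest increases and the 8 largest decreases; bars are group means. Groups without overlap were a condition of the choice, and FAM13A-AS1 reaches the lowest value, 9.70 CPM.

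The promoters of the 3 members that rose most and the 3 that fell most are shown, among called members whose RefSeq start lay within 100 bases of the listed one, so that their bases can be read beside the change; the choice was made after values were seen. Each runs from 250 bases before to 50 bases after the start, 5′ to 3′ on the gene's strand, in RefSeq's GRCh38.p14. Capitals mark the letters of 6 motifs searched for on both strands, so a match on the other strand shows as its reverse complement. The motif of the GC box, known as the binding site of Sp1 and its relatives, was taken as GGGCGG, and it stands in 45% of all promoters of the RefSeq collection. The upstream box bound by the factor NF-Y was taken as CCAAT, which stands in 34.6% of them. The core promoter box bound by the TATA-binding protein was taken as TATAAA, which stands in 11.5%. The E box, bound by helix-loop-helix factors, was taken as CACGTG, which stands in 7.26%. The cAMP response element was taken as TGACGTCA, which stands in 1.85%. The site of ETS factors such as GABP was taken as CCGGAAG, which stands in 10.3%.
URB1-AS1, chr21:32392883-32393182, plus strand: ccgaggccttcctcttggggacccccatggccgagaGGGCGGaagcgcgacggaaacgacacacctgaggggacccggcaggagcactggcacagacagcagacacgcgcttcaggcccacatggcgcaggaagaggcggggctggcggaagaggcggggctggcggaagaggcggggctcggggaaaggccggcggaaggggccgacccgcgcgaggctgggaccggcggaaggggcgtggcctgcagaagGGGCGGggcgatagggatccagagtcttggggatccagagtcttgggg
ATP2A1-AS1, chr16:28879872-28880171, minus strand: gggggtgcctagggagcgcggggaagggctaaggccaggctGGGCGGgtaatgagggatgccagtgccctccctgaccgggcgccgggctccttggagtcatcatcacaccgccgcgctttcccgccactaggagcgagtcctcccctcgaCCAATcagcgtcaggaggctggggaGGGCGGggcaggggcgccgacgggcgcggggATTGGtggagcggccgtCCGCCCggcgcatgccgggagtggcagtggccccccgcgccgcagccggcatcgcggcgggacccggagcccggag
FKBP14-AS1, chr7:29988406-29988705, plus strand: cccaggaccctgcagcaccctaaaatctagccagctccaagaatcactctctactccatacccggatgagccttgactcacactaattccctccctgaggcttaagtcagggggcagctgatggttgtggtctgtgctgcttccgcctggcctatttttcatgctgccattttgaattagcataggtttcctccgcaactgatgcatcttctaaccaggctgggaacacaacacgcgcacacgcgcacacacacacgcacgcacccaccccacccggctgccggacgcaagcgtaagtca
IGFBP7-AS1, chr4:57109512-57109811, plus strand: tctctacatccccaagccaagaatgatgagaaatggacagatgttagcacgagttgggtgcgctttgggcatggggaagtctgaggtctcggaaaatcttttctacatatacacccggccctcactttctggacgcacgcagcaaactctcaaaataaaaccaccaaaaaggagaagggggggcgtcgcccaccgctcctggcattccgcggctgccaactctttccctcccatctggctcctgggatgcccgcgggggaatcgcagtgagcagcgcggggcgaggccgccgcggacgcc
SAP30L-AS1, chr5:154445773-154446072, minus strand: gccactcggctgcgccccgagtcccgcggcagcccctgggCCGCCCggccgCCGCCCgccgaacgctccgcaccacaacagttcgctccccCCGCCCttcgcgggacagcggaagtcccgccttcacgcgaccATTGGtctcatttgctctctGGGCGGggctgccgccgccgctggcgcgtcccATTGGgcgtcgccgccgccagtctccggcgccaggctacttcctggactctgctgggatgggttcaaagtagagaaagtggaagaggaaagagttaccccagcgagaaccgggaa
CD82-AS1, chr11:44605288-44605587, minus strand: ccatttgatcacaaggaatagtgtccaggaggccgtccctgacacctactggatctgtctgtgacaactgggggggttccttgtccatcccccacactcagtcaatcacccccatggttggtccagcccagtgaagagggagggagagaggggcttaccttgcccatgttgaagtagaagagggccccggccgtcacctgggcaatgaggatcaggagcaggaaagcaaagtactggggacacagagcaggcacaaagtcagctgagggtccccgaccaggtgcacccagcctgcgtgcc
URB1-AS1, ATP2A1-AS1 and FKBP14-AS1 rose, and their promoters hold 28, 34 and 13 CpG dinucleotides. IGFBP7-AS1, SAP30L-AS1 and CD82-AS1 fell, with 21, 35 and 5. GC boxes stand in URB1-AS1 (2), ATP2A1-AS1 (3) and SAP30L-AS1 (4), so the last shares this feature with genes that moved the other way. FKBP14-AS1, IGFBP7-AS1 and CD82-AS1 hold none of the searched letters in this window. ATP2A1-AS1 and SAP30L-AS1 each hold 2 CCAAT boxes as well.

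Over the 199 members with a RefSeq promoter, the CpG content of the classes, which was not tested between them, stood as follows. The median was 24 CpG dinucleotides in the 65 that rose, 11 in the 46 that fell and 13 in the 88 not called, and 14 in all 35116 promoters of the RefSeq collection, coding genes included. A GC box stood in 58.5% of the promoters of members that rose, in 39.1% of those that fell and in 45% of all promoters. Of the 108 members with more than 14 CpG, 44 rose and 21 fell, and of the 91 with 14 or fewer, 21 rose and 25 fell. These promoters are not all those of the listed starts: 106 of the 199 lie within 100 bases of it, and distances reach 275504 bases. Within 100 bases, 22 of 51 members with more than 14 CpG rose and 9 fell, and of 55 with 14 or fewer, 12 rose and 12 fell. Other tested rows with a promoter leaned the same way: 220 of 669 with more than 14 CpG rose and 118 fell, beside 128 and 111 of 474 with fewer. Other rows thus showed it too, and no difference between classes was tested.

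**Figure D3:**
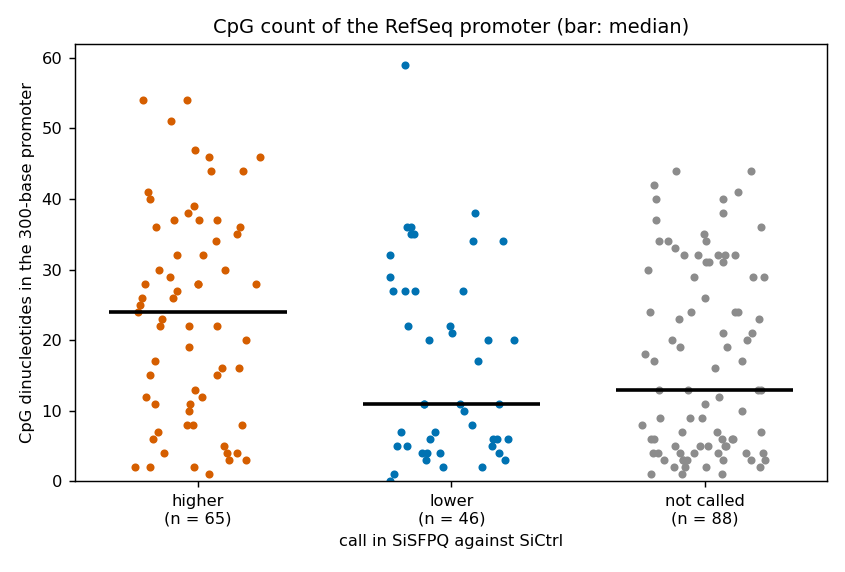
Number of CpG dinucleotides in the 300-base RefSeq promoter, by call in SiSFPQ against SiCtrl; each point is 1 gene and the bar is the median. The median is 24 for genes that rose, 11 for genes that fell and 13 for genes not called, and all 3 classes span low and high values.

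Position relative to coding genes, whose reads a member can share, was described next. Rows with an ID in GENCODE 29 were sorted by their exons there, and other rows by their whole listed span, introns included. Of the table's 35036 rows 13886 had such an ID, against 277 of the 283 members, so the sets were not sorted alike. Of all 2791 tested rows over no coding exon, 715 rose and 688 fell (25.6% and 24.7%), with a median log2 fold change of 0.01. Of the 46 members over none, 23 rose and 10 fell (50% and 21.7%), with a median of 0.27. Of the 237 over coding exons, 63 rose and 61 fell, with a median of 0.05. Rows named -DT, transcripts that diverge from a coding gene's promoter, leaned the same way over no coding exon, 66 rising and 20 falling of 181 (median 0.28). Over coding exons they did too, 43 rising and 21 falling of 120 (median 0.13). Other antisense-named rows over no coding exon were closer to even. With 1000 or more counts, 5 rose and 4 fell of 16, and with fewer than 250, 22 rose and 19 fell of 94. Other rows of the members' count range over no coding exon leaned the other way, 168 rising and 226 falling of 656 (median -0.08). No difference between these sets was tested. When the 98 members that overlap another row of the table were left out as well, 10 of 25 members over no coding exon rose and 7 fell, with a median of 0.043 (beside 23.9% higher and 23.7% lower of the 3612 genes tested that overlap no other row). BCAN-AS1, DLGAP1-AS1 and DLGAP1-AS2 are among those left out. By the share of exonic bases over coding exons, the median was 0.27 with none, 0.05 under 25% (40 rising and 35 falling of 143), 0.05 from 25% to under 75% (18 and 21 of 79) and -0.06 at 75% or more (5 and 5 of 15).

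By arrangement, members over the partner's start rose more often than they fell, 41 against 24 of 117 (median 0.13). That is 35% and 20.5%, beside 24.5% and 24% of all tested genes. FOXP4-AS1, at a forkhead factor gene, averaged 46.2 ± 2.37 CPM in SiSFPQ and 20.3 ± 3.57 CPM in SiCtrl (SD, n = 3 each; log2 fold change 1.20). FBXL19-AS1 (1.01), CDC42-AS1 (1.01), CD63-AS1 (0.96) and ST20-AS1 (0.96) also lie there, as do UCKL1-AS1 (-0.94) and ATP6V0E2-AS1 (-0.94), which fell. Of 6 members that start beside the partner and run away from it without overlap, 3 rose, URB1-AS1, BCAN-AS1 and FOXD2-AS1 (0.95). SAP30L-AS1, 102 bases from the start of a Sin3 co-repressor subunit gene, fell by 1.07, and PRKCQ-AS1 and ZMIZ1-AS1 were not called. Members across the partner's end went the other way in number, 15 rising and 18 falling of 54 (median -0.05), and held 6 of the 12 decreases of at least 1 on the log2 scale and 0 of the 14 such increases. Of these with a RefSeq promoter, 12 of 24 with more than 14 CpG rose and 6 fell (median 0.20). With 14 or fewer, 1 of 17 rose and 9 fell (median -0.41). Inside the partner 19 of 71 rose and 17 fell, and of 28 that span the whole partner 7 rose and 7 fell. Whether arrangements differ was not tested.

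**Figure D4:**
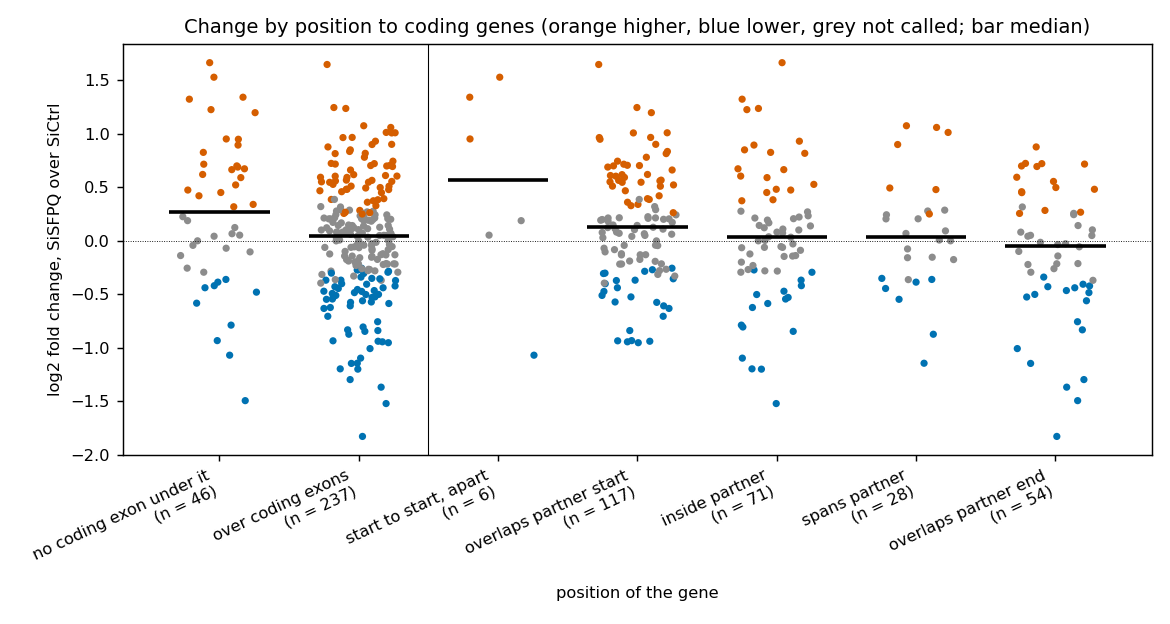
Log2 fold change of each gene, SiSFPQ over SiCtrl, by overlap with coding exons (left of the line) and by arrangement with the partner (right of it); bars are medians. The median is 0.27 for the 46 genes over no coding exon and 0.05 for the 237 over one, and 6 of the 12 decreases of at least 1 stand among genes over the partner's end.

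The members were then grouped by what the partner's protein does, which is not the role of the antisense RNA. Examples beyond the leading genes were chosen after their values were seen. Of all tested genes, 24.5% were higher and 24% lower. At genes of transcription and chromatin, 15 of 47 members rose and 9 fell (median 0.17). ELOA-AS1, at the gene of the elongation factor elongin A, had 131, 145 and 144 CPM in SiSFPQ, against 59.2, 77.5 and 64.3 CPM in SiCtrl (1.06 ± 0.11; edgeR, adjusted p = 9.3e-21). Of its exonic length 57.2% lies over coding exons. KMT2E-AS1 (0.74) and ASH1L-AS1 (0.81), at genes of SET-domain proteins, rose, and SAP30L-AS1, with 50.2 ± 4.68 CPM in SiSFPQ and 105 ± 7.46 CPM in SiCtrl (SD, n = 3 each), and PAXBP1-AS1 (-0.56) fell.

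At genes of RNA processing and translation, 7 of 17 rose and 4 fell (median 0.25). Beside URB1-AS1, the risers were SRRM2-AS1 (0.56), at the gene of a nuclear speckle scaffold, RBM38-AS1 (0.51), CACTIN-AS1 (0.45), RALY-AS1 (0.34), ZRANB2-AS1 (0.27) and MRPL20-AS1 (0.25). PDCD4-AS1, at the gene of an inhibitor of the helicase eIF4A, fell most: 35.9 ± 5.27 CPM in SiSFPQ and 68.0 ± 9.96 CPM in SiCtrl (SD, n = 3 each; -0.93; edgeR, adjusted p = 2.4e-09). It lies over no coding exon. PCBP1-AS1 (-0.35), NCBP2-AS1 (-0.29) and DHX9-AS1 (-0.26) fell by less. A second row also named PCBP1-AS1, with 14192 counts, overlaps that member and was lower by 0.52. The counts of this group were smaller with 1 library left out, as were those of the whole table (2788 to 2899, against 3063). In this group 3 rose and 2 fell without SiCtrl replicate 1, and likewise without SiCtrl replicate 2. Leaving out SiSFPQ replicate 3 gave 4 rising and 2 falling. Without SiCtrl replicate 3, 5 rose and 2 fell, and without SiSFPQ replicate 2, 6 rose and 2 fell. DESeq2 called 2 higher and 1 lower, and plain library totals 9 and 1.

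Genes of surface receptors, adhesion, matrix and channels, ion pumps included, had 10 of 34 members higher and 11 lower (median -0.08). Those that fell included THBS1-AS1, at the thrombospondin gene THBS1, with 63.6 ± 7.89 CPM in SiSFPQ and 115 ± 14.1 CPM in SiCtrl (-0.85), and DCHS1-AS1, at a protocadherin gene, with 49.2 ± 8.30 CPM in SiSFPQ and 86.2 ± 13.7 CPM in SiCtrl (-0.81; SD, n = 3 each). Their exonic bases lie to 88.2% and 100% over coding exons, and the part of their counts that comes from the partners was not measured. LIF-AS2 (-0.63), whose partner codes for a secreted ligand and was placed in this group by hand, and COL5A1-AS1 (-0.42) fell too. MICA-AS1 (0.71), ITPR3-AS1 (0.82) and UNC5B-AS1 (0.67) rose with BCAN-AS1, BCAN-AS2 and ATP2A1-AS1.

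At metabolic and mitochondrial genes 8 of 28 rose and 9 fell. HSDL2-AS1, at the gene of a dehydrogenase-like peroxisomal protein, had 134, 114 and 123 CPM in SiSFPQ, against 69.2, 68.6 and 62.8 CPM in SiCtrl (0.88 ± 0.11; edgeR, adjusted p = 9.2e-14). B4GALT1-AS1 (0.90) and CYP2U1-AS1 (0.90) rose, and PM20D1-AS1 (-1.14), DBH-AS1 (-1.10) and GALNT9-AS1 (-0.79) fell. At signalling genes 8 of 29 rose and 7 fell: STARD13-AS (0.93), SIPA1L1-AS1 (0.95) and PRKCZ-AS1 (0.85) rose, and SNRK-AS1 (-0.62) and DAAM2-AS1 (-0.53) fell. The number falling was 3 without SiSFPQ replicate 3, 4 under plain totals and 1 by DESeq2, while 8 or 9 rose in each of these.

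The remaining groups had similar numbers in each direction. Membrane traffic, lysosome and motor genes had 7 of 28 higher and 7 lower, with KTN1-AS1 at 0.56 and CHMP1B-AS1 at -0.47. Genes of DNA repair, replication and division had 3 of 14 higher and 3 lower. ERCC6L2-AS1, at a DNA repair helicase gene, had 88.6, 99.0 and 76.3 CPM in SiSFPQ, against 53.5, 63.2 and 58.4 CPM in SiCtrl (0.59 ± 0.12; edgeR, adjusted p = 9.9e-06). TONSL-AS1 rose by 0.60, and RRM1-AS1, at a ribonucleotide reductase gene, fell by 0.54. Ubiquitin, proteasome and folding genes had 3 of 14 higher and 2 lower, with FKBP14-AS1, at the gene of a prolyl isomerase of the endoplasmic reticulum, at 118 ± 5.41 CPM in SiSFPQ and 56.0 ± 2.51 CPM in SiCtrl (1.07; SD, n = 3 each). PSMD6-AS2 (-0.83) and PPIC-AS1 (-0.47) fell. In the 72 ungrouped members, 25 rose and 19 fell. None of these group counts was tested against another.

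Rows that share a locus did not always share a call. Of the 33 members overlapped by another row with at least 250 counts, 18 had the same call as that row. This includes pairs in which neither row was called. DLGAP1-AS1 and DLGAP1-AS2, each matched to the other, are both counted, and overlapping rows can share reads. The share expected of unrelated rows was not computed. Among members without the same call, only HSD17B1-AS1 and CCDC183-AS1 were called in the opposite direction to the overlapping row. The others had a call in just 1 row of the pair. UCA1-AS1 (0.32) and UCA1 (0.31) rose together, as did CDC42-AS1 (1.01) and LINC00339 (0.97), while MYOSLID-AS1 (-0.49) and MYOSLID (-0.55) fell together. Each of these pairs overlaps on opposite strands, and counting may not part strands, so they may share reads and are not independent observations. Others parted: HSD17B1-AS1 rose by 0.82 while ENSG00000266929, on the other strand, fell by 0.50 on the log2 scale, and CCDC183-AS1 changed by -0.43 while ENSG00000272679, with 2629 counts, rose by 1.02. MPDU1-AS1 overlaps the far more abundant ENSG00000264772 (93155 counts), which rose by 0.51, and was not called itself (0.21; edgeR, adjusted p = 0.15). The separate rows ARAP1-AS1 and ARAP1-AS2 at 1 partner were both not called, at 0.21 and 0.17. At TMEM44 the first antisense gene rose by 0.55 and the second had 0.39 without a call (edgeR, adjusted p = 0.070).

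Among the 126 members not called, 88 had a 95% interval of the log2 fold change within -0.5 to 0.5. The 4 measured most precisely were VPS9D1-AS1, YEATS2-AS1, CAMK2G-AS1 and RAB5C-AS1. YEATS2-AS1, at the gene of a histone acylation reader, had 112, 108 and 112 CPM in SiSFPQ, against 124, 101 and 121 CPM in SiCtrl, with an interval of -0.25 to 0.14. For RAB5C-AS1, at the gene of an early endosome GTPase, the interval was -0.28 to 0.12, and for VPS9D1-AS1 it was -0.06 to 0.34. CAMK2G-AS1 had 121, 127 and 114 CPM in SiSFPQ, against 99.2, 104 and 110 CPM in SiCtrl. Its groups did not overlap, yet its adjusted p was 0.075 (edgeR; log2 fold change 0.21).

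Per kilobase of listed exonic length, the members' mean levels ran from 1.37 to 313 CPM per kb in SiSFPQ, with a median of 15.1, and from 1.41 to 405 CPM per kb in SiCtrl, with a median of 15.0. In 8 members that length exceeds the listed span, so their values per kb are uncertain. RCC2-AS1, wholly over coding exons of RCC2, was highest in both groups. Relative spread between libraries had a median of 9.63% (SD over mean) in SiSFPQ and 10.8% in SiCtrl. The standard error of the log2 fold change ran from 0.10 to 0.20. At the lower end of the count range, BCAS3-AS1 (0.53) and IGFL2-AS1 (0.12) had 250 counts each, and OPA1-AS1 (0.06), with 248, stood just outside. At the upper end AGAP2-AS1 (-0.27) and GABPB1-AS1 (0.61) had 993 and 994 counts, and ZNF674-AS1 (0.72), with 1004, stood just outside. A smaller share was without a call at higher counts: 83 of 165 members under 500 counts, 27 of 70 from 500 to under 750 and 16 of 48 from 750.

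Set beside like rows, the members lay between the scarcer and the more abundant antisense-named genes. Of 209 antisense-named rows with 1000 or more counts 35.4% were higher and 39.7% lower, and of 358 tested rows with fewer than 250 counts 17.9% and 14.2%. Rows named -DT had 36.2% of 301 higher and 13.6% lower. Other rows of 250 to under 1000 counts had 25.9% of 1523 higher and 28% lower. None of these differences between sets was tested.

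**Figure D5:**
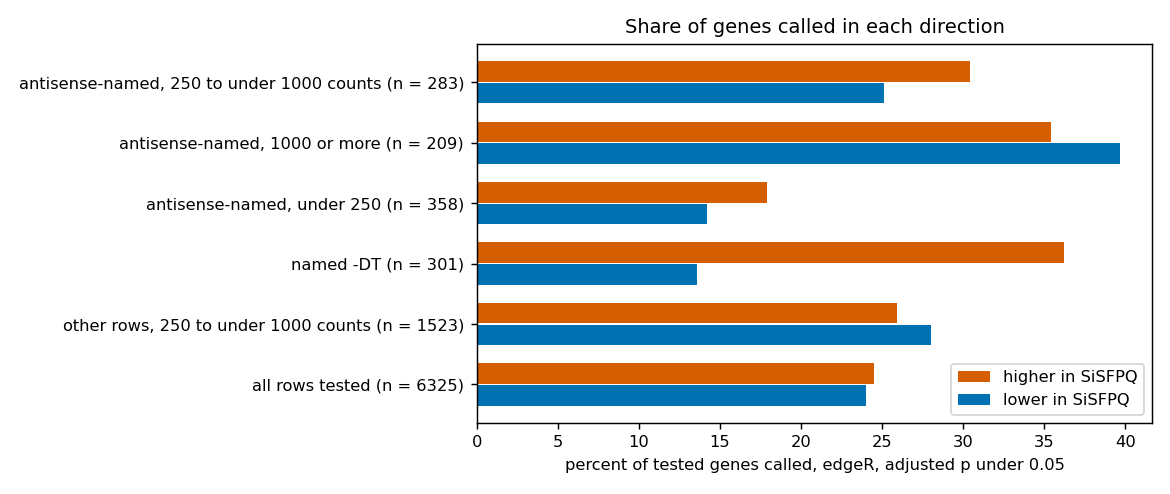
Percent of tested genes called higher and lower in SiSFPQ in each set of rows (edgeR, adjusted p under 0.05). The 283 antisense-named genes have 30.4% higher and 25.1% lower, and all 6325 tested rows 24.5% and 24%.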

How the data were processed

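The authors deposited 1 table of whole-number read counts per non-coding gene for the 6 libraries, per the file headers, with listed coordinates and exonic length. The aligner, counter and annotation release are not given in the sources used here. Libraries were prepared with poly(A) selection and a stranded kit, per the labels' protocols. Groups came from the sample titles. Genes passing edgeR's filterByExpr were scaled by TMM and tested with the robust quasi-likelihood test, SiSFPQ over SiCtrl, with Benjamini-Hochberg adjustment over all 6325 tested genes (edgeR 4.0.16, limma 3.58.1, DESeq2 1.42.0, R 4.3.3, Python 3.11.15). A call is an adjusted p under 0.05. SE is the size of the log2 fold change over the square root of F. All 283 members passed the filter. On simulated counts for 6099 genes, the test found 99 of 100 genes changed by 1 on the log2 scale and 53 of 100 changed by 0.5. It also called 8 unchanged genes. Far fewer genes were changed there than were called in the data, so these shares do not carry over to the data.

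Positions and exons of coding genes came from GENCODE 29 (GRCh38), in which 277 of the 283 IDs were found, each overlapping the listed position. Rows not found there were taken by their whole listed span. Promoters were RefSeq's. The same-numbered libraries of the 2 groups did not deviate together (r = -0.0047, 0.00097 and 0.010), so they were not paired. Replicates within a group differed by more than sampling noise.

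The members and lists were chosen with earlier results of these data known. Partner roles were assigned by hand from gene names. Named by rule were the 8 largest increases and decreases among called members without overlap between groups, the 4 smallest adjusted p each way, the 4 most precise genes not called, the smallest adjusted p of each role, the genes at the range's ends and overlapping members. Other examples were chosen after their values were seen. Alternatives were other scalings, filters and tests, a replicate block, leaving out each library, and genes overlapping no other row.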

Additional observations from a re-analysis of the deposited data

How the results depend on the processing

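No called member changed direction as a call in any alternative, and 90 of the 157 calls held in all 14 settings that tested every member at the same threshold. With an absolute log2 fold change of at least 1, calls numbered 774 in the whole table, 14 members higher and 12 lower. DESeq2 gave 1762, 52 and 38, and the genes overlapping no other row 1720, 57 and 47 (185 members tested). The cause of the DESeq2 difference was not tested. Plain totals gave 97 members higher and 57 lower, with 57.5% of calls in the whole table higher, against 50.5% with TMM. The replicate block gave 83 members higher and 71 lower, 3050 in the whole table, and the shared numbers are not a pairing. Leaving out 1 library gave 72 to 85 members higher, 58 to 65 lower and 2788 to 2899 in the whole table. The members' median log2 fold change was 0.1294 under plain totals and 0.0244 to 0.0762 with 1 library left out. The median without coding exon overlap was 0.3348 under plain totals, 0.0433 among genes overlapping no other row, 0.1872 with the coding gene's span in place of its exons, and 0.2164 to 0.3394 with 1 library left out. Reversals among genes not called were YEATS2-AS1, 0.0094 under plain totals, and IGFL2-AS1, from -0.0487 to 0.3224 with 1 library left out. BCAS3-AS1, at the lowest count, lost its call without a filter, under DESeq2 and without SiCtrl replicate 1, SiCtrl replicate 3 or SiSFPQ replicate 1. CAMK2G-AS1 gained one under plain totals (log2 fold change 0.28; edgeR, adjusted p = 0.017). The smallest increase called was 0.25 on the log2 scale. Intervals cover the spread between these libraries only.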
